A study of Mus musculus with 6 samples.

Results

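Leukemia inhibitory factor (Lif), heparin-binding EGF-like growth factor (Hbegf) and angiogenin (Ang) are genes for secreted proteins, and their probes were followed on both strands in mouse mammary tumors and normal mammary glands. The probes were taken by gene symbol or accession from the array's own annotation. They make up 3 of the 445 genes with antisense probes on the array, and 14 probes in all, of which 3 are sense and 11 antisense. They were chosen by their sense differences between tumors and normal glands, which were already known. Those differences, and every other value of the same contrast for these probes, are therefore given as descriptions without a test.

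Total RNA was measured on a custom Agilent array of 60-base oligonucleotides, on which sense probes detect the annotated mRNA and artificial antisense (AFAS) probes detect transcripts from the opposite strand of the same gene. RNA was labeled with Cy3 by first-strand cDNA synthesis from random primers, 1 dye and 1 array per sample. The samples were 4 mammary tumors and 2 normal mammary glands, all from GRS/A mice, a strain in which mouse mammary tumor virus induces mammary tumors. Neither age, stage nor the number of mice behind the samples is given in the sources used here, so the spread between arrays may be partly technical. The extraction text of all 6 samples names brain, while titles and the study name mammary tissue, and groups follow the titles. These were whole tissues, in which fewer cells of a type and less RNA per cell cannot be told apart.

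LIF is a cytokine of the interleukin 6 family that signals through the LIF receptor (Lifr) paired with gp130 (Il6st), and from there through JAK kinases, STAT3 and the phosphatase SHP2 (Ptpn11). In the mammary gland it is known for triggering epithelial cell death and remodelling after weaning. HB-EGF is made as a membrane-bound precursor, is shed by metalloproteases and binds the EGF receptor and ErbB4. Angiogenin is a secreted ribonuclease that stimulates blood vessel growth and is held in check in the cytoplasm by the ribonuclease inhibitor Rnh1. In the mouse, Ang and the ribonuclease gene Rnase4 lie at 1 locus and share a promoter.

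The letters of the probes on which the Lif and Ang results turn are as follows, 5′ to 3′. Sense probes carry the letters of the mRNA and AFAS probes those of its complement. For probes that may lie in untranslated regions, the first 30 of their 60 bases are given.
Lif sense probe: ttgggtgacaaattcctctttgatgaatgt
Lif AFAS probe NN02: acattctactttatgctacctgtctgtctg
Lif AFAS probe NN00: cagacacactacctactatgctcggtggaa
Lif AFAS probe NN04: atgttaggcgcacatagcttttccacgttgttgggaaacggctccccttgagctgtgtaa
Sense probe of the Ang block: atctcggacaaaaatccaactggacaggct

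The Lif AFAS probes NN02 and NN00 are shown because the tumors were ordered differently on them, and NN04, given whole, because it stayed near the floor. The GC content was 40.0% in the Lif sense probe and 43.3% in the Hbegf sense probe, beside a median of 43.3% over all sense probes. The longest run of letters that the Lif sense probe shared with the target of any Lif AFAS probe was 7 bases, so the 2 strands were read at different places of the gene.

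The sense probe in the Ang block needs a caution about its identity. It lies between the 2 Ang AFAS probes in the value table, but the array annotation gives it no Ang accession and describes it as Rnase4. The RefSeq-based promoter table of GRCm38.p6 lists 1 start for Ang and 2 for Rnase4, and 1 of the Rnase4 entries is identical to that of Ang. The 250 bases before this shared start, at chr14:51090827-51091076 on the plus strand, are shown because they are the sequence by which the 2 genes are tied together.
Shared upstream region of Ang and Rnase4: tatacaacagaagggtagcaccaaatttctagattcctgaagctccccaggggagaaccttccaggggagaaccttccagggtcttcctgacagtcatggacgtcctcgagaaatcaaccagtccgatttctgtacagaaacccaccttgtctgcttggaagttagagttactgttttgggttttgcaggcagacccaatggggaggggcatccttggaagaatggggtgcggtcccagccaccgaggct

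Values below are the signals the authors deposited, that is, background-corrected intensities scaled by 1 factor per array and set to 5 where they were below 5 or not above background. This floor does not mean the same in both groups. The lowest value above it was 5.03, 5.34, 5.81 and 5.36 in tumors 1 to 4, but 18.55 and 24.27 in normal glands 1 and 2. Entries at the floor made up 0.789% in tumor 1 and 11.6% to 12.9% in tumors 2 to 4. In normal glands 1 and 2 they made up 24.4% and 31.1%. A normal gland listed at 5 is thus known only to lie below the lowest value that its array shows, and each difference that rests on such a value is also given with the floor raised to that array's own lowest value above it.

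Tumor 2 was nearer to the normal glands than the other tumors were, though it correlated with those tumors at 0.868 to 0.922. Its Spearman correlation over all tied probes was 0.931 with normal gland 1 and 0.913 with normal gland 2, while the other 3 tumors reached 0.838 to 0.872 with the normal glands. Tumors 3 and 4 shared a slide. Over all 404 sense probes the median log2 difference between tumors and normal glands was 0.91, and over the 1750 AFAS probes it was 0.44, so the differences of Lif, Hbegf and Ang are also given relative to these medians. Scaling each array to its 75th percentile lowered both medians by 0.40.

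Lif mRNA was higher in the tumors and near the limit of measurement in the normal glands. The sense signal was 517.69, 139.69, 334.22 and 599.15 in tumors 1 to 4, and 22.42 and 5 in normal glands 1 and 2. Every tumor lay above both normal glands, tumor 4 was the highest and tumor 2 the lowest, and normal gland 2 was at the floor. Tumors averaged 398 ± 205 (SD, n = 4) and normal glands 13.7 ± 12.3 (SD, n = 2).

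On the log2 scale the Lif sense difference, tumor minus normal, was 5.03 with a standard error of 0.81, at rank 2 of the 404 sense probes and 4.12 above their median, values that rest on normal gland 2 at the floor. With the floor of each array raised to its lowest value above 5, the difference was 3.89 with a standard error of 0.65, or 14.9-fold, again at rank 2 and 3.18 above the median. Without tumor 2 it was 5.47 on the deposited signals.

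The size of the Lif difference turned more on the normal glands than on any single tumor. Without normal gland 2, which was at the floor, the Lif difference was 3.95, and without normal gland 1 it was 6.12. Leaving out 1 tumor at a time gave 4.77 to 5.47. The Lif sense probe was flagged as well above background on 4 of 4 tumor arrays and as saturated on none.

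Hbegf mRNA was also higher in every tumor than in the normal glands, with another order among the tumors. The sense signal was 286.12, 98.61, 459.55 and 228.90 in tumors 1 to 4, and 43.51 and 5 in normal glands 1 and 2. The groups did not overlap, tumor 3 was the highest, and tumor 2 was again the lowest tumor and normal gland 2 at the floor. Tumors averaged 268 ± 150 (SD, n = 4) and normal glands 24.3 ± 27.2 (SD, n = 2).

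The Hbegf sense difference was 3.98 on the log2 scale with a standard error of 0.95, at rank 4 of the 404 sense probes and 3.07 above their median. This rank turned on the floor: with each array's floor raised the difference was 2.84, or 7.18-fold, at rank 17 and 2.13 above the median. Hbegf depended on the 2 normal glands more than Lif did: the difference was 5.54 without normal gland 1 and 2.42 without normal gland 2. Without tumor 2 it was 4.40. This probe, too, was well above background on 4 of 4 tumor arrays.

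The Ang block did not share this pattern. Its sense probe, described as Rnase4, gave a signal of 6545.27, 6647.76, 3388.61 and 3386.06 in tumors 1 to 4, and 4858.33 and 3240.17 in normal glands 1 and 2. Tumors 1 and 2 were the highest, tumors 3 and 4, on 1 slide, lay between the normal glands, and the groups overlapped. Tumors averaged 4992 ± 1853 (SD, n = 4) and normal glands 4049 ± 1144 (SD, n = 2).

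The Ang-block difference was 0.25 with a standard error of 0.52, which is smaller than its error, and lay 0.66 below the median sense difference, at rank 287 of 404. Its sign was not fixed. The difference was -0.15 with 75th percentile scaling, -0.02 with median scaling and -0.04 without normal gland 2. It was 0.73 with the replicate number as a block, where it rests on tumors 1 and 2 and both normal glands. Tumor 2, the lowest tumor for Lif and for Hbegf, was the highest tumor here.

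Lif and Hbegf were thus 2 of the 3 sense probes with every tumor above both normal glands. Over all sense probes 42.6% had this order (172 of 404), and nothing is read from the count because the genes were selected on this contrast. The reverse order, every tumor below both normal glands, was seen in 0 of the 3 and in 3.47% of all sense probes.

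**Figure D1:**
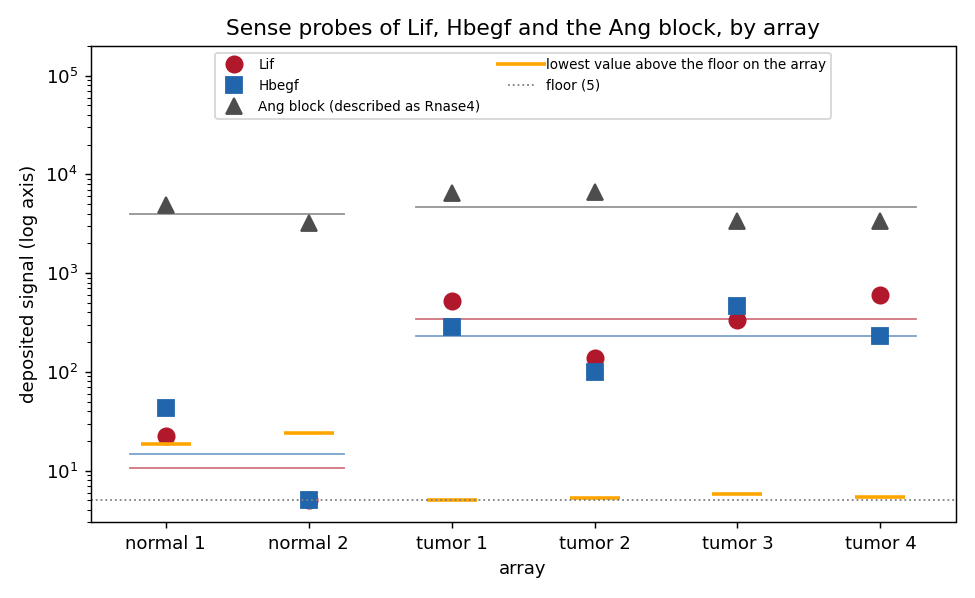
Deposited signal (log axis) of the 3 sense probes on each of the 6 arrays, with lines at the mean of the log2 signals of each group, a dotted line at the floor of 5 and orange bars at the lowest value above the floor on each array. Lif and Hbegf lie between 98.61 and 599.15 in the tumors and at or below 43.51 in the normal glands, where the orange bars are at 18.55 and 24.27, while the probe of the Ang block lies between 3240.17 and 6647.76 on all arrays.

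**Figure D2:**
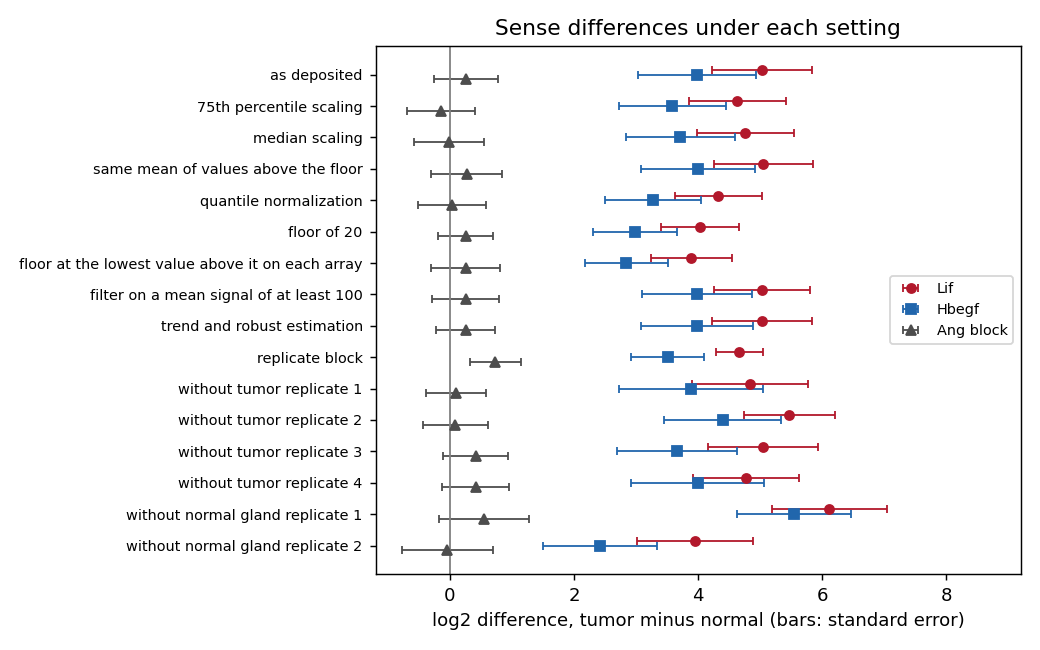
Log2 difference of the 3 sense probes, tumor minus normal, with its standard error, for the deposited signals and under 15 other settings. Lif lies between 3.89 and 6.12 and Hbegf between 2.42 and 5.54, and the Ang block between -0.15 and 0.73.

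At Lif, the antisense probes ordered the tumors in other ways than the sense probe did. AFAS probe NN02 gave 1119.59, 359.09, 156.67 and 209.91 in tumors 1 to 4 and 279.78 and 237.43 in normal glands 1 and 2. AFAS probe NN00 gave 72.44, 509.47, 816.98 and 204.64 in the tumors and 523.50 and 238.16 in the normal glands. Both probes were well above background on 4 of 4 tumor arrays, yet tumor 1 was the highest on NN02 and the lowest on NN00, and tumor 3 the lowest on NN02 and the highest on NN00.

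The highest tumor signal was 7.15 times the lowest on NN02 and 11.3 times on NN00. On both probes the normal glands lay inside the tumor range. The log2 difference between the groups was 0.40 with a standard error of 0.83 on NN02 and -0.33 with a standard error of 1.02 on NN00, so neither exceeded its error.

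On 2 of the other 3 Lif AFAS probes the groups also differed by less than the error. NN03 gave 131.10, 369.78, 93.07 and 130.80 in the tumors and 198.28 and 151.38 in the normal glands, with tumor 2 far above the other tumors and a difference of -0.15 (SE 0.63). NN01 ranged from 18.74 to 96.65 in the tumors against 26.87 and 35.30 in the normal glands, with a difference of 0.32 (SE 0.75). Its groups overlapped, as they did on NN03.

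Lif AFAS probe NN04 was close to unmeasured. It gave 21.82, 8.46, 5 and 14.35 in the tumors and 5 in both normal glands, and was well above background on 1 of 4 tumor arrays. Because the lowest values above the floor in the normal glands were 18.55 and 24.27, no direction can be given for this probe.

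On 2 of the Hbegf AFAS probes, NN00 and NN04, the antisense signal was steady. AFAS probe NN00 gave 189.47, 220.22, 215.85 and 202.53 in tumors 1 to 4, and 181.15 and 148.01 in normal glands 1 and 2. Every tumor lay above both normal glands, by little. The coefficient of variation among the tumors was 6.72%, against 55.8% for the Hbegf sense probe in the same RNA, and the spread of its log2 tumor signals ranked 1732 of 1750 AFAS probes from the widest.

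The log2 difference on this Hbegf probe was 0.34 with a standard error of 0.36, close to the AFAS median of 0.44, and -0.06 with 75th percentile scaling. AFAS probe NN04 gave 172.24, 122.44, 147.38 and 124.47 in the tumors and 137.19 and 87.72 in the normal glands, a difference of 0.35 (SE 0.40) with overlapping groups. The difference on NN04 was -0.04 with 75th percentile scaling.

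Hbegf AFAS probe NN03 varied more than the other Hbegf AFAS probes. It gave 98.56, 28.84, 207.73 and 33.76 in tumors 1 to 4, and 32.48 and 67.72 in normal glands 1 and 2. Tumors 1 and 3 lay above both normal glands, tumor 4 between them and tumor 2 below both, and the difference was 0.51 (SE 0.91). The order of the tumors on NN03 placed tumor 3 highest and tumor 2 lowest, as on the Hbegf sense probe. This is a description over 4 arrays and was not tested.

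Hbegf AFAS probe NN01 was listed at 6.28 to 16.85 in the tumors and at the floor in both normal glands. It was well above background on 0 of 4 tumor arrays, and with a floor of 20 all 6 arrays are equal. No fold is given for it.

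The 2 Ang AFAS probes carry Ang's own accession, NM_007447. Whether they also lie opposite Rnase4 transcripts was not tested. NN00 gave 63.06, 82.99, 32.96 and 60.65 in tumors 1 to 4 and 67.51 and 66.54 in normal glands 1 and 2. Tumor 2 was above the normal glands and the other 3 tumors below them, with a difference of -0.24 (SE 0.48). NN01 gave 5 to 31.65 in the tumors and 28.11 and 5 in the normal glands, and was well above background on 1 of 4 tumor arrays.

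Of the 11 AFAS probes of the 3 genes, 2 had every tumor above both normal glands, beside 21.6% of all 1750 AFAS probes. Both were Hbegf probes, and 1 of them, NN01, did so only through normal glands at the floor. The reverse order was seen in 0 of the 11 and in 6.91% of all AFAS probes.

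**Figure D3:**
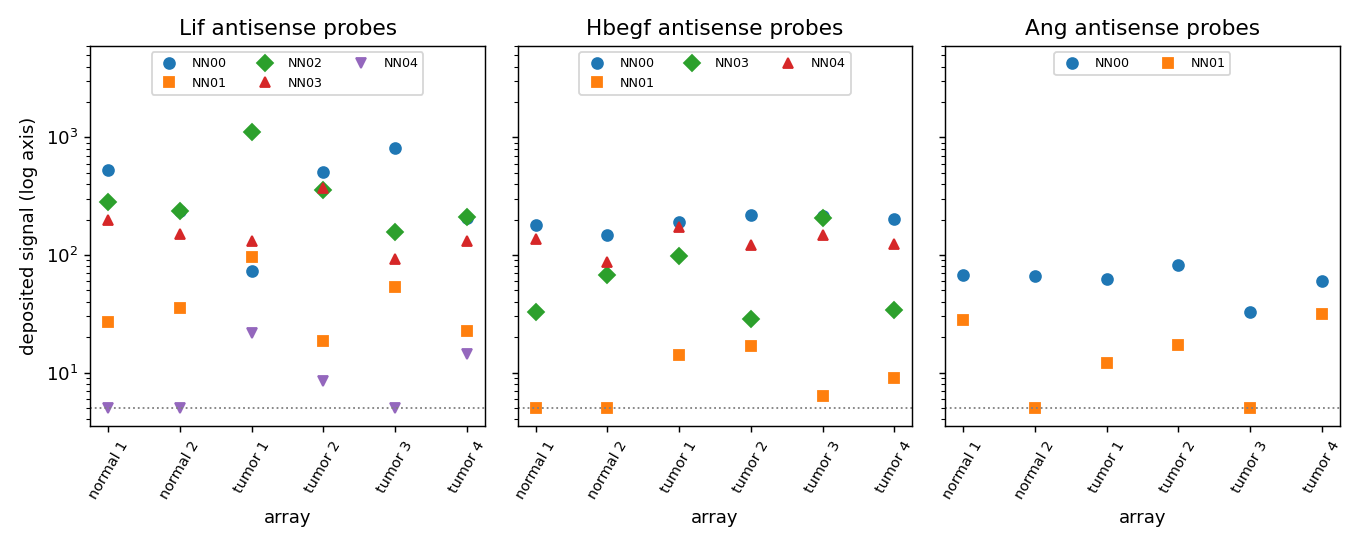
Deposited signal (log axis) of the AFAS probes of Lif, Hbegf and Ang on each of the 6 arrays, 1 symbol per probe, with a dotted line at the floor of 5. Lif NN02 and NN00 trade places between tumor 1 (1119.59 and 72.44) and tumor 3 (156.67 and 816.98), while Hbegf NN00 stays between 148.01 and 220.22.

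The other genes of each ligand's pathway were tested with limma on log2 signals, with Benjamini-Hochberg adjustment over all 404 sense probes and a threshold of 0.05, at which 14.6% of sense probes (59 of 404) passed, 58 of them higher in tumors. Of 31 genes listed for LIF and gp130 signaling, Lif itself aside, 7 had a sense probe, of which 2 rose, 0 fell and 5 did not pass. The median log2 difference of the 7 was 0.52, below the 0.91 of all sense probes.

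The LIF receptor itself was 1 of the genes that rose. The Lifr signal was 395.20, 544.80, 324.94 and 1487.34 in tumors 1 to 4, and 97.21 and 77.21 in normal glands 1 and 2. The groups did not overlap, and tumor 4, the highest for Lif, was also the highest for Lifr. The other tumors were ordered differently: tumor 2, the lowest for Lif, came next after tumor 4 for Lifr. The log2 difference was 2.71 with a standard error of 0.67 and an adjusted p of 0.0414 by limma.

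Il6st, which encodes gp130, the second chain of the LIF receptor, gave 673.67, 1257.24, 171.75 and 1445.14 in the tumors and 179.76 and 83.48 in the normal glands. Tumor 3 lay between the normal glands and the other tumors above them, and the difference of 2.47 (SE 0.90) did not pass, with an adjusted p of 0.0905 by limma. Without tumor 3 it passed, with an adjusted p of 0.0176, and it passed in none of the 14 other alternatives, where the adjusted p reached 0.501.

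Ptpn11, which encodes the phosphatase SHP2 that binds activated gp130, rose. Its signal was 589.46, 372.24, 400.37 and 1012.65 in the tumors and 133.24 and 88.12 in the normal glands, all tumors being above. The difference was 2.33 with a standard error of 0.55 and an adjusted p of 0.0378 by limma. Further members of the list, the ligand Il11, the receptor Il6ra and the transcription factor Cebpd, had differences of 0.05, -0.54 and 0.52, none of which passed.

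The Lifr call was kept under 7 of 15 other settings, with adjusted p from 0.0226 to 0.374 by limma, and that of Ptpn11 under 7 of 15, from 0.0228 to 0.374. Leaving out tumor 1, tumor 4, normal gland 1 or normal gland 2 ended both calls, with adjusted p of 0.100, 0.0564, 0.112 and 0.374 for Lifr and 0.100, 0.0668, 0.104 and 0.374 for Ptpn11, and leaving out tumor 2 ended the Lifr call (0.0540). The signs stayed positive throughout, with Lifr between 2.25 and 2.98.

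Around Hbegf, 7 of 37 listed genes of EGF receptor signaling had a sense probe. Of these, 2 rose, 0 fell and 5 did not pass, beside 14.6% of all sense probes passing. Nothing is read from this count. The median difference of the 7 was 1.28, beside 0.91 over all sense probes. Neither Egfr, Erbb2 nor Erbb4 had a tied sense probe among the named ones, so the receptors that bind HB-EGF were not analysed here. Erbb3, a receptor that pairs with the others but does not itself bind HB-EGF, gave 1578.90, 1742.06, 2170.10 and 3607.58 in tumors 1 to 4, and 669.31 and 444.41 in normal glands 1 and 2. All tumors were above, and the difference was 1.98 with a standard error of 0.51 and an adjusted p of 0.0414 by limma.

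Map2k1, the kinase MEK1 that activates the ERK kinases, gave 633.48, 387.85, 454.91 and 1350.21 in the tumors and 166.85 and 106.67 in the normal glands. Its sense probe was assigned by position among the table's entries, without an accession of its own gene. The difference was 2.22 with a standard error of 0.61 and an adjusted p of 0.0483 by limma, and all tumors were above. Of the remaining genes, the adaptor Shc1 (1.87), Nras (1.28), the co-receptor Cd44 (1.24), the ERK kinase Mapk3 (0.29) and Hras (-0.44) did not pass.

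The Erbb3 call was kept under 6 of 15 other settings and that of Map2k1 under 5 of 15, with adjusted p by limma from 0.0304 to 0.374 and from 0.0304 to 0.394. Both were lost without any 1 of tumor 1, tumor 2, tumor 4, normal gland 1 or normal gland 2, at adjusted p of 0.0822, 0.0526, 0.0726, 0.107 and 0.374 for Erbb3 and 0.113, 0.0506, 0.0726, 0.114 and 0.394 for Map2k1.

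Around Ang, 10 of 34 listed angiogenic factors, receptors and partners had a sense probe. Of these, 1 rose, 0 fell and 9 did not pass, beside 14.6% of all sense probes passing. Nothing is read from this count. The median difference of the 10 was 0.75, below the 0.91 of all sense probes. Neither Rnh1 nor Plxnb2, the inhibitor and a receptor of angiogenin, was among the 10. Plau, the protease urokinase, gave 1502.35, 1446.24, 1117.54 and 1371.30 in the tumors and 537.78 and 237.90 in the normal glands. All tumors were above, with a difference of 1.92, a standard error of 0.49 and an adjusted p of 0.0414 by limma, and the call was lost without any 1 of tumor 1, tumor 2, tumor 4, normal gland 1 or normal gland 2 (adjusted p 0.100, 0.0555, 0.0755, 0.0764 and 0.400). It was kept under 6 of the 15 other settings.

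The vascular receptors did not pass. Kdr differed by 0.49 (SE 0.43), Flt1 by 0.07 (SE 0.49) and Tie1 by -0.36 (SE 0.66), and the tumor and normal values of Flt1 and Tie1 overlapped. The angiogenic ligand Hgf had the largest difference of the list, 2.85, but tumor 3 was at 12.42 and normal gland 2 at the floor, and with a standard error of 1.58 it did not pass. On the opposite strand, 0 of the 33, 25 and 39 AFAS probes of the 3 lists passed limma's adjusted threshold, beside 0.457% of all AFAS probes. An unadjusted limma p under 0.05 was seen in 5, 3 and 5 of them, beside 284 of all 1750 AFAS probes.

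**Figure D4:**
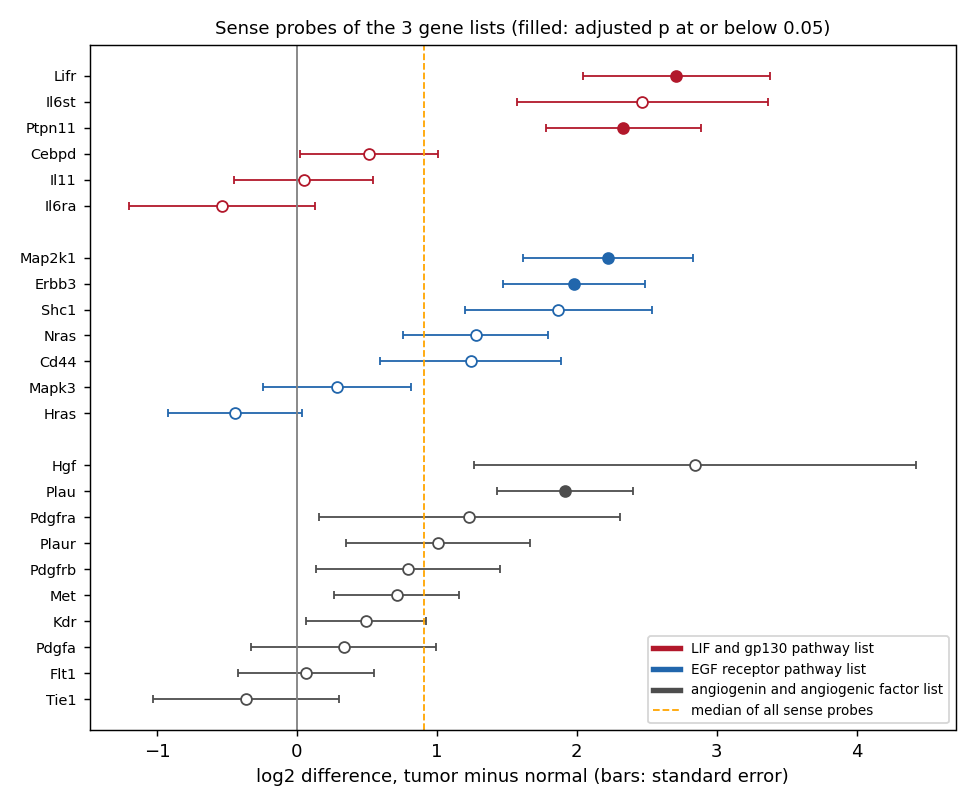
Log2 difference of sense probes of the 3 gene lists, tumor minus normal, with its standard error, filled where the adjusted p was at or below 0.05 and with a dashed line at 0.91, the median of all sense probes. Lifr, Ptpn11, Map2k1, Erbb3 and Plau are filled, at 1.92 to 2.71, and Il6st and Hgf are open at 2.47 and 2.85.

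Of the 10 marker genes of other cell types and of epithelium with a sense probe, 1 passed the threshold, beside 14.6% of all sense probes (59 of 404). Nothing is read from this count. The summed signal of the epithelial keratins Krt14, Krt18 and Krt19 ranged from 25357 to 83987 in tumors and from 6083 to 8150 in normal glands, with 1 of 3 past the threshold. Krt14 did not follow the sum, with overlapping signals of 1752.33 to 5193.30 in tumors and 3691.93 and 2463.37 in normal glands 1 and 2. That of the leukocyte genes Cd4 and Csf1r ranged from 9853 to 35375 against 5000 to 8549, with 0 of 2 past it. Endothelial genes (Kdr, Pecam1, Tie1; 1247 to 3658 against 1321 to 1899) and fibroblast genes (Pdgfra, Vim; 388 to 661 against 408 to 686) overlapped between the groups, with 0 of 3 and 0 of 2 past it.

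The keratin sum was 25387, 28046, 25357 and 83987 in tumors 1 to 4, highest in tumor 4, which had the highest Lif signal. Tumor 3, which had the highest Hbegf signal, had the lowest sum, nearly equal to that of tumor 1. The sum of the leukocyte genes was highest in tumor 2, the lowest tumor for both. The part of tissue make-up in the Lif and Hbegf values was not tested. None of the listed adipocyte, milk or brain genes had a sense probe, so the fat of the normal gland and the organ named in the extraction text could not be checked by markers.

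Finally, the sense probes most like each gene in their course over the 6 arrays were sought, by the root mean square difference of centred log2 signals. Probes much less variable over the arrays than the gene itself were left out. Among the 3 nearest to Lif, of 84 probes compared, were Tsn (0.74) and Hbegf (0.79), and among the 3 nearest to Hbegf, of 132, were Tfrc (0.77) and Lif (0.79). Tsn encodes the nucleic acid-binding protein translin, and Tfrc is the transferrin receptor.

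Tsn was at the floor in normal gland 2, as Lif and Hbegf were. With each array's floor raised to its lowest value above it, the nearest to Lif were Fos, an immediate early transcription factor gene (0.35), Tsn (0.46) and Pdcd6 (0.49) of 139 probes, and Hbegf came at rank 14. For Hbegf they were Dsc2, a desmosomal cadherin gene (0.42), Ryk (0.44) and Chrnb1 (0.46) of 229, and Lif came at rank 42.

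The Fos signal was 2880.30, 871.03, 1130.31 and 2921.93 in tumors 1 to 4, and 160.39 and 109.03 in normal glands 1 and 2, so that tumors 4 and 1 were the highest and tumor 2 the lowest, as for Lif. For the probe of the Ang block the nearest were Fli1 (0.16), Krt14 (0.22) and Mapre1 (0.23) of 399, the same 3 under the raised floor. Krt14, a keratin of basal epithelial cells, gave 4258.25, 5193.30, 1752.33 and 2658.22 in the tumors and 3691.93 and 2463.37 in the normal glands, with tumors 1 and 2 highest as on the Ang-block probe. These likenesses are descriptions over 6 arrays. For Lif and Hbegf they include the tumor-normal step on which the genes were chosen, so such likeness was largely set in advance. Nothing is read from it.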

How the data were processed

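The intensities analysed were those the authors deposited: Agilent Feature Extraction processed signals of 4 tumor and 2 normal gland arrays, scaled per array, with a floor of 5. Entries of the value table, which names no probes, were tied to scanner probes through the 4 tumor signals, giving 1750 AFAS and 404 sense probes of 2156 entries. Tumor columns equalled the scanner signal times 0.957, 0.822, 1.16 and 1.05. Slides are known for the tumors alone here, and no fit with the slide was made. Of the sense probes, 82 were linked by place alone.

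Differences, standard errors and p-values came from two-sided limma 3.58.1 fits (lmFit, then eBayes; R 4.3.3) to the log2 signals of 6 arrays, with Benjamini-Hochberg adjustment per strand. The step was tested on simulated data. Sequences were read with Python 3.11.15. The alternatives comprised a floor of 20, 4 further scalings, a minimum mean signal of 100, trended robust estimation, a block for the replicate number, leaving out each array, the methods' t-test, and for detection another flag and normexp with an offset of 50. Raising the floor to each array's lowest value above it was added after seeing the data.

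The 3 genes and the pathway and marker lists were chosen with earlier results of these data known. All probes of the 3 genes are named, and of each list every gene past the threshold, otherwise the 2 with the smallest p, the ligands' receptors and partners, and for likeness the 3 nearest probes, apart from some that are not reported here. Il11, Il6ra, Cebpd, Shc1, Nras, Cd44, Mapk3, Hras, Kdr, Flt1, Tie1, Hgf and Fos were named after their values were seen. Gene names came from RefSeq accessions, and the files name no genome build. The number of arrays limits the precision.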

Additional observations from a re-analysis of the deposited data

Results flagged for a closer look

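Among the 14 probes of Lif, Hbegf and Ang, 1 had a tumor far from the others. On the Lif AFAS probe MOR00016N00NN03 tumor 2 gave a signal of 369.78 against 93.07 to 131.10 in tumors 1, 3 and 4. On linear signals, the step from tumor 2 to tumor 1 was 0.863 of the range of the 4. This was above Dixon's critical value for 4 samples, but the log2 scale used for the differences was not used for this ratio. Chance alone gives such a gap in about 1 of 20 groups if the values are normally distributed, and 14 groups were examined. The normal glands lay at 198.28 and 151.38 on this probe.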

How the results depend on the processing

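The Lif and Hbegf sense differences were positive under all 15 alternatives. The Lif difference of 5.03 became 3.89 when each array's floor was raised, and that of Hbegf became 5.54 without normal gland 1 and 2.42 without normal gland 2. All 3 sense probes were detected on 4 of 4 tumor arrays with both flags.

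Counts of calls varied more. The 59 sense probes past the threshold became 23 with 75th percentile scaling, 30 with median scaling, 29 with quantile normalization, and 0 to 89 with 1 array left out (1 without tumor 1, 89 without tumor 3, 14 without normal gland 1, 0 without tumor 4 or normal gland 2). On linear signals the methods' t-test gave 0 after Benjamini-Hochberg adjustment and 64 before it, and on log2 signals 1 and 122, while limma's unadjusted p was under 0.05 for 155. The 8 AFAS probes became 3 with quantile normalization or the raised floor, 4 with a floor of 20, 5 with the filter and 0 to 15 with 1 array left out (15 without tumor 2, 0 without tumor 3, tumor 4 or either normal gland), and the t-test gave 159 and 211 unadjusted and 0 and 0 adjusted, with 284 at limma's unadjusted p.

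The 2 calls of the LIF and gp130 list became 0 with 75th percentile or median scaling, 1 with quantile normalization and 0 to 3 with 1 array left out (3 without tumor 3). Those of the EGF receptor list became 0 with these 3 scalings, 1 with a floor of 20 and 0 to 2 with 1 array left out. The 1 call of the angiogenic list became 0 with these scalings and 0 to 2 with 1 array left out. By the t-test on linear signals the 3 lists had 0, 0 and 2 calls unadjusted and 0 each adjusted. On log2 signals they had 2, 3 and 1 unadjusted and 0 each adjusted.

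Replicate numbers are shared by 2 tumors and the 2 normal glands. Deviations from the group means correlated at r = -0.02 for number 1 and 0.05 for number 2. With 2 normal glands their deviations mirror each other, so these values cannot show whether the samples were paired. With the replicate number as a block, 0 sense probes, 0 AFAS probes and 0 genes of each list passed by limma, and the differences were 4.67 for Lif, 3.51 for Hbegf and 0.73 for the Ang block. Numbers 3 and 4 have no normal gland, so the block differences rest on tumors 1 and 2 and the 2 normal glands. Such a fit leaves little to estimate the error from, and nothing is read from its 0 calls. The cause of the changes between settings was not tested. The small number of normal glands and a floor well under their lowest measured value limit every low signal in the normal group.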
